A study of Homo sapiens with 6 samples.

Results

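The EGF receptor family, its ligands and the feedback inhibitor ERRFI1 were followed in 143B cells, a human osteosarcoma line, after TPBC-PEG or vehicle. The 9 genes were chosen by name: the receptors EGFR, ERBB2 and ERBB3, the ligands AREG, EREG, HBEGF, TGFA and NRG1, and ERRFI1. The choice was made with earlier results of these data known. All 9 had a row among the 60683 genes of the count table, and 8 of them were among the 15846 genes with enough reads to test, EREG being the exception. The design had 3 libraries of cells given PBS for 24 h and 3 of cells given TPBC-PEG for 24 h, a compound that the series places in photodynamic therapy of osteosarcoma. The sample titles give its dose as 3 µM and the treatment protocol as 300 µM, and the sample labels name no light exposure, so neither the dose nor illumination is settled here. 143B descends from the HOS line by transformation with a ras oncogene, so both groups carry an activated RAS downstream of these receptors. Nothing in the labels says that the 3 libraries of a group came from separate cultures, so the p-values measure the spread between these libraries, which may be technical.

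EGFR, ERBB2 and ERBB3 are membrane receptors that pair when a ligand binds and pass the signal to RAS and ERK, to PI3K and AKT, and to STAT factors. AREG, EREG, HBEGF and TGFA bind EGFR, while NRG1 binds ERBB3 and ERBB4; ERBB2 has no known ligand and works as a partner, and ERBB3 has little kinase activity of its own. The ligands are made as membrane precursors and are released by ADAM proteases. ERRFI1, also called MIG6, binds the kinase domain of active EGFR family receptors, blocks it and promotes receptor uptake, and its gene is itself induced by growth factor signals.

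Of the 8 tested genes, EGFR, AREG, NRG1 and ERRFI1 were higher after TPBC-PEG, HBEGF was lower, and ERBB2, ERBB3 and TGFA did not pass the test. AREG had the highest fold, 2.12, and ERRFI1 the next, 1.48. Calls rest on an adjusted p below 0.05 from edgeR's quasi-likelihood test with Benjamini-Hochberg adjustment over all tested genes. Among all tested genes 33.2% were called, 16.2% as higher and 16.9% as lower, and the 5 calls in 8 are to be read against that high background. The libraries of the groups did not overlap for 5 of the 8 tested genes, against 43.4% of all tested genes. The median log2 change of the 8 was 0.21 and that of all tested genes 0.01. As the genes were chosen with earlier results of these data known, these comparisons with all genes are descriptive only. In RNA from whole cultures, a change in the share of cells that express a gene and a change in RNA per cell cannot be told apart.

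**Figure D1:**
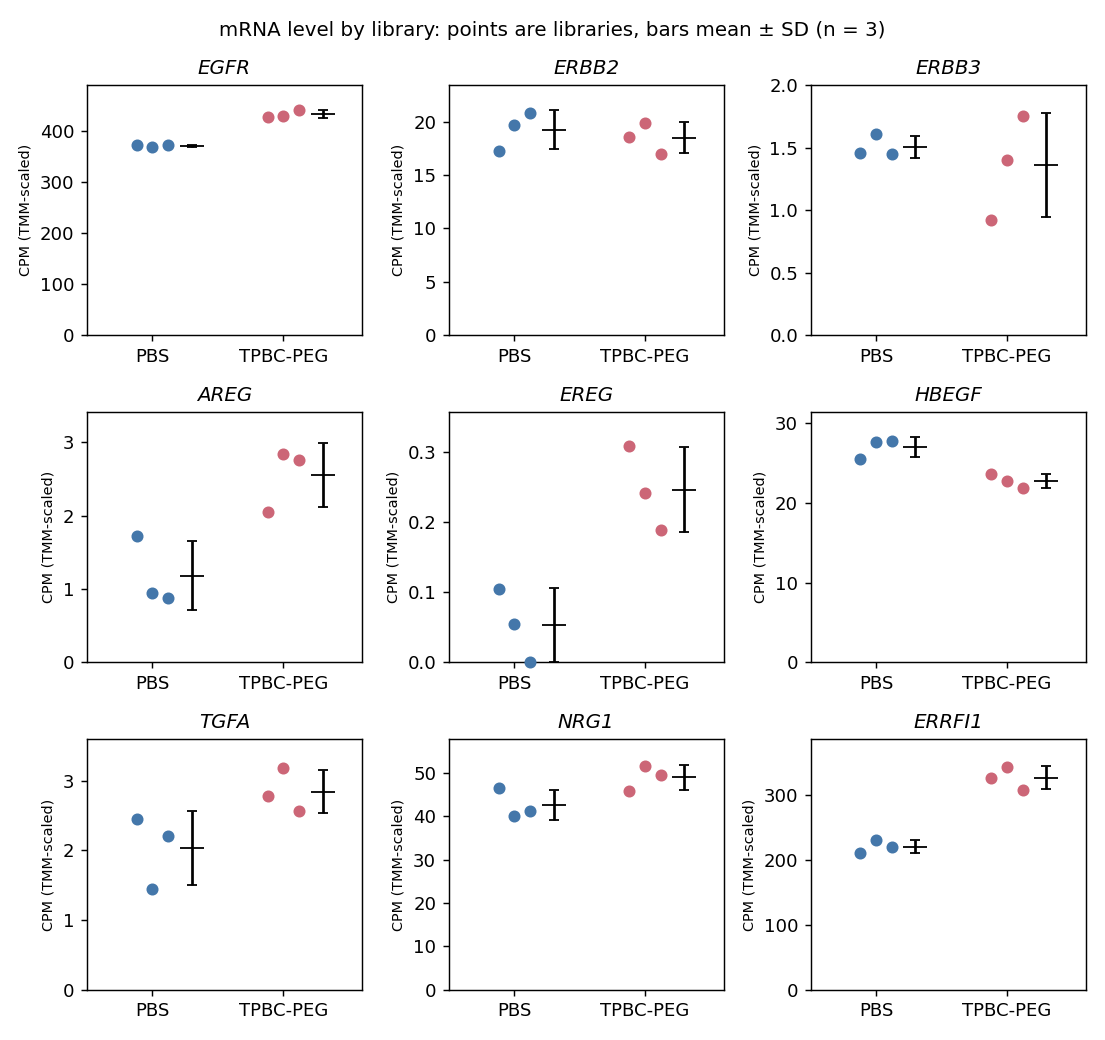
Level of each of the 9 genes in CPM (counts scaled to a common library size, vertical axes from 0, scaled per panel) in the 3 PBS and 3 TPBC-PEG libraries; points are libraries and the bars with whiskers are mean ± SD. The 3 TPBC-PEG points lie above the 3 PBS points for EGFR, AREG, EREG, TGFA and ERRFI1 and below them for HBEGF, and the groups overlap for ERBB2, ERBB3 and NRG1.

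The 6 libraries held between 15726323 and 20486584 counts. Log2 levels correlated across genes at r = 0.992 to 0.993 within a group and at 0.985 to 0.988 between groups. Of 9 osteoblast and mesenchymal markers 7 reached 1 CPM, while COL1A2 (0.059 CPM in PBS, 0.050 in TPBC-PEG) and THY1 (0.017 and 0.163 CPM), both defining markers, were nearly absent. The summed level of that list was 3144 to 3185 CPM in PBS and 2820 to 2937 CPM in TPBC-PEG, most of it VIM, with means of 2577 and 2344 CPM. RUNX2 (17.6 CPM in PBS, 25.8 in TPBC-PEG) and SPP1 (17.8 and 30.9 CPM) had the higher mean in TPBC-PEG. COL1A1 (27.4 CPM in PBS, 19.7 in TPBC-PEG), ALPL (4.97 and 4.21 CPM), SPARC (413.5 and 365.7 CPM) and NT5E (107.5 and 89.9 CPM) had the lower mean there, as did VIM. EPCAM was the only 1 of 7 epithelial markers with a mean of 1 CPM or more over the 6 libraries, at 16.1 CPM in PBS and 17.0 CPM in TPBC-PEG, with CLDN4 next at 1.13 and 0.865 CPM, KRT14 at 0 and the whole list at 16.7 to 19.0 and 17.5 to 18.7 CPM. None of 5 blood markers (0.757 to 1.04 CPM summed in PBS, 0.206 to 1.06 in TPBC-PEG, HBB at 0) or of 4 endothelial markers (1.05 to 1.14 and 0.815 to 1.16 CPM) reached 1 CPM. Of 5 neural markers 1, RBFOX3, did, and that list summed to 2.11 to 2.61 CPM in PBS and 1.94 to 2.17 CPM in TPBC-PEG.

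The promoter windows of 4 genes are shown because they cover a ligand that rose (AREG), the ligand called lower (HBEGF), the receptor that rose and ERRFI1. Windows of 300 bases, 250 before to 50 after the start, were taken from RefSeq (GRCh38.p14) for 7 of the 9 genes. None was used for ERBB3 and NRG1, which does not show that RefSeq lacks a window for them. Each line reads 5′ to 3′ on the strand of the gene, with capitals marking matches, on either strand, to the motifs searched: the cAMP response element TGACGTCA, the AP-1 site TGANTCA, the ATF4 and CHOP composite TGATGNAAN, the SP1 site GGGCGG, the TEAD site GGAATG and the TATA box TATAAA.
AREG, chr4:74444886-74445185, plus strand: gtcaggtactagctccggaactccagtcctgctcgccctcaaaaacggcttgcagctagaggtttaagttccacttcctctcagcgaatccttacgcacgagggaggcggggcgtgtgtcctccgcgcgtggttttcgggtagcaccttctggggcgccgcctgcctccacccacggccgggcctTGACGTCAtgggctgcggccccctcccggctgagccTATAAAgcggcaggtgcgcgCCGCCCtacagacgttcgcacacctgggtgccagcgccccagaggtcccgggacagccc
HBEGF, chr5:140346554-140346853, minus strand: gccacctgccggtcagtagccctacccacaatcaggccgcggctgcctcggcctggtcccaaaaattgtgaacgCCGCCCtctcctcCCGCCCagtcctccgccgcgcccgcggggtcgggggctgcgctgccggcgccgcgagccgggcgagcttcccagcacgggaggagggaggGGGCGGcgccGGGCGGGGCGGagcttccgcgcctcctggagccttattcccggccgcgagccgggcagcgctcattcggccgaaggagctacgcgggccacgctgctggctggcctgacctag
EGFR, chr7:55018767-55019066, plus strand: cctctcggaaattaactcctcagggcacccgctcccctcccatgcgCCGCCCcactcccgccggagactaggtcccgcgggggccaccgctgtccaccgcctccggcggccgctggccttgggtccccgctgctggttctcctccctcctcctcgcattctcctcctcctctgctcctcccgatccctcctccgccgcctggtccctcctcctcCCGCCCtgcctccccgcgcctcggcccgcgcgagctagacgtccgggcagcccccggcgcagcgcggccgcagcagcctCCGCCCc
ERRFI1, chr1:8026260-8026559, minus strand: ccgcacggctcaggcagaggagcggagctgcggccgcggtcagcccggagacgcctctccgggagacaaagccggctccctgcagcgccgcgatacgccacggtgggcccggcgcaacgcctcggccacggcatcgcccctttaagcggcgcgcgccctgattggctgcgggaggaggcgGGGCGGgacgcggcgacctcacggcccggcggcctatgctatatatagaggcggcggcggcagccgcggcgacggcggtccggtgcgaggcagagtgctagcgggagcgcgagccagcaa

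The AREG window held a full cAMP response element 65 bases before the start, a motif found in 1.85% of the 35116 RefSeq windows of this length, the binding site of the CREB and ATF factors. It also held a TATA box at -29 and an SP1 site at -9. TATAAA stood at any place and on either strand in 11.5% of windows, and the share at this position was not measured. HBEGF held 5 SP1 sites, at -176, -163, -73, -63 and -58, of which the last pair share a base. EGFR held 3, at -204, -36 and 44, and ERRFI1 held 1, at -70, and these 3 windows had no exact match to TATAAA. The ERRFI1 window does hold the letters tatatata between its SP1 site and the start, which this exact search did not count. An SP1 site stood in 45.0% of all windows. The windows of HBEGF, EGFR and ERRFI1 had a GC content of 75.0%, 75.3% and 74.7%, and that of AREG 66.3%. EREG, the neighbour of AREG, had a TATA box at -32 and a TEAD site at -175 (in 14.0% of windows) and no cAMP response element, with a GC content of 57.7%. None of the 4 printed windows held an AP-1 site (7.71% of windows), a TEAD site or the composite element (3.61%). EGFR has a further RefSeq start within the gene, whose window held 2 AP-1 sites at -232 and -136, a TEAD site at -114 and 2 matches to TATAAA at -146 and -36. These matches describe letters only and say nothing about binding.

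Among the receptors, EGFR was higher after TPBC-PEG and its partners did not pass the test. EGFR (chromosome 7, 55019021 to 55211628, plus strand, GRCh38, GENCODE 29), the receptor for all the ligands here except NRG1, stood at 371, 368 and 371 CPM in PBS libraries 1 to 3 and at 426, 429 and 441 CPM in TPBC-PEG libraries 1 to 3. The PBS values lay within a few CPM of each other and every TPBC-PEG value was above them. The mean went from 370.0 ± 1.99 to 432 ± 8.10 CPM (SD, n = 3), 1.17-fold (95% interval 1.11 to 1.23), a log2 change of 0.22 ± 0.04 (SE; edgeR adjusted p = 1.65e-06). EGFR-AS1, which lies antisense to 1.49% of its exon bases, had 0 to 2 counts in a library.

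ERBB2 (chromosome 17, 39687914 to 39730426, plus strand), the partner without a ligand, was at 17.2, 19.7 and 20.8 CPM in PBS and 18.6, 19.9 and 17.0 CPM in TPBC-PEG. The groups overlapped. Its log2 change was -0.05 with a 95% interval of -0.23 to 0.13 (edgeR adjusted p = 0.723), so a change of more than 1.09-fold upward or below 0.854-fold lay outside the interval. MIEN1 and PGAP3 on the other strand share 7.41% of its exon bases.

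ERBB3 (chromosome 12, 56076799 to 56103505, plus strand), the NRG1 receptor, was low, at 1.46, 1.61 and 1.45 CPM in PBS and 0.925, 1.40 and 1.76 CPM in TPBC-PEG. The TPBC-PEG libraries lay on both sides of the PBS libraries. The interval of its fold was wide, 0.586 to 1.36 (edgeR adjusted p = 0.728), and a difference within those limits was not detectable at this depth. Leaving out TPBC-PEG library 1 turned the log2 change of ERBB3 from -0.16 to 0.05. Likewise, that of ERBB2 became 0.0033 without PBS library 3 and 0.0028 without TPBC-PEG library 3.

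The EGFR ligands moved in both directions. AREG, amphiregulin, a ligand of low affinity for EGFR (chromosome 4, 74445134 to 74455009, plus strand), was at 1.72, 0.942 and 0.883 CPM in PBS, from 33, 17 and 14 counts. In TPBC-PEG it was at 2.06, 2.85 and 2.76 CPM, from 40, 59 and 44 counts. PBS library 1 was the highest of its group and TPBC-PEG library 1 the lowest of its own, yet the groups did not overlap. The mean rose from 1.18 ± 0.468 to 2.55 ± 0.433 CPM (SD, n = 3), a log2 change of 1.08 ± 0.28 (SE). With so few counts the fold of 2.12 had a 95% interval of 1.44 to 3.13 (edgeR adjusted p = 0.00177). Its promoter window carries the cAMP response element shown above, a match of letters whose link to this rise was not tested.

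EREG, epiregulin, starts at 74365143 and ends at 74388751 on the same strand of chromosome 4, 56.4 kb before AREG. It gave 2, 1 and 0 counts in PBS and 6, 5 and 3 counts in TPBC-PEG, too few for the test. Each TPBC-PEG library had more than each PBS library. The sums of 3 and 14 counts gave a depth-corrected ratio of 4.41 with an exact conditional 95% interval of 1.23 to 23.9, which covers counting error only. Without the filter on low counts its adjusted p in edgeR was 0.242. In PBS library 3, which had no EREG read, a count of 0 allows a level of up to 0.189 CPM (3 counts).

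HBEGF, heparin-binding EGF-like growth factor (chromosome 5, 140332843 to 140346631, minus strand), was the ligand called lower. It stood at 25.5, 27.6 and 27.7 CPM in PBS and at 23.5, 22.7 and 21.8 CPM in TPBC-PEG. All 3 treated libraries lay below all 3 controls. The mean went from 26.9 ± 1.24 to 22.7 ± 0.857 CPM (SD, n = 3), 0.844-fold (95% interval 0.759 to 0.938), a log2 change of -0.24 ± 0.08 (SE; edgeR adjusted p = 0.00967).

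TGFA, transforming growth factor alpha (chromosome 2, 70447280 to 70554193, minus strand), was at 2.45, 1.44 and 2.21 CPM in PBS and 2.78, 3.18 and 2.57 CPM in TPBC-PEG. The groups did not overlap, but PBS library 2 lay well below the other two of its group. Its log2 change of 0.49 (95% interval 0.02 to 0.96) did not pass the adjusted threshold (edgeR adjusted p = 0.102).

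NRG1, neuregulin 1, the ligand of ERBB3 (chromosome 8, 31639386 to 32767959, plus strand), was at 46.7, 40.2 and 41.4 CPM in PBS and 46.0, 51.7 and 49.5 CPM in TPBC-PEG. PBS library 1 was above TPBC-PEG library 1, so the groups overlapped. The mean went from 42.7 ± 3.46 to 49.1 ± 2.87 CPM (SD, n = 3), 1.15-fold (95% interval 1.05 to 1.25; edgeR adjusted p = 0.0125). This call was not stable. It was lost with DESeq2 (adjusted p = 0.0685) and, in edgeR, without PBS library 2 (0.0945), PBS library 3 (0.068) or TPBC-PEG library 2 (0.112).

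Of the 7 other receptor and ligand genes of the family, NRG2, a further neuregulin, was the only 1 that could be tested, at 4.74 ± 0.470 CPM in PBS and 4.57 ± 0.602 CPM in TPBC-PEG (SD, n = 3; edgeR adjusted p = 0.84). EGF itself averaged 0.648 CPM in PBS and 0.297 CPM in TPBC-PEG and was not tested. It gave 10, 12 and 12 counts in PBS and 6, 3 and 7 counts in TPBC-PEG, and the groups did not overlap. ERBB4, BTC, EPGN and NRG4 lay under 1 CPM in both groups, and NRG3 had no count in any library.

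ERRFI1, the feedback inhibitor (chromosome 1, 8004404 to 8026308, minus strand), had the lowest adjusted p of the 9 genes. It was at 210.3, 231 and 219 CPM in PBS and at 327, 344 and 308 CPM in TPBC-PEG. The gap between the highest control and the lowest treated library was wider than the range within either group. The mean rose from 220.2 ± 10.4 to 326 ± 17.8 CPM (SD, n = 3), 1.48-fold (95% interval 1.40 to 1.57), a log2 change of 0.57 ± 0.04 (SE; edgeR adjusted p = 1.46e-15). AL034417.4, a gene on the other strand over 3.70% of its exon bases, had at most 21 counts in a library.

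**Figure D2:**
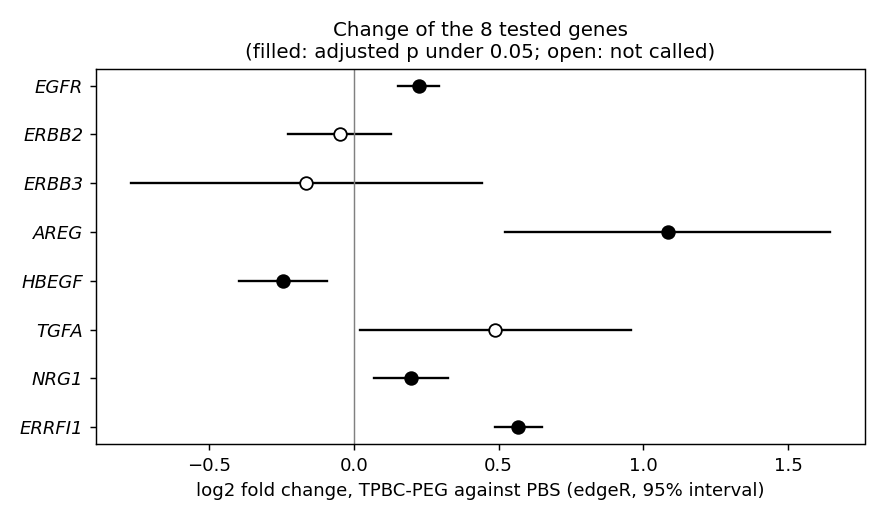
Log2 fold change of TPBC-PEG over PBS for the 8 tested genes (horizontal axis; point, edgeR estimate from 3 libraries against 3; line, 95% interval). The intervals of AREG, ERRFI1, EGFR and NRG1 lie above 0, that of HBEGF lies below 0, that of TGFA starts at 0.02, and those of ERBB2 and ERBB3 cross 0.

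No test against a change of at least 1.5-fold was passed: in edgeR that adjusted p was 0.592 for AREG and 1 for ERRFI1. Under this stricter test 131 genes of all those tested were higher and 14 lower.

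To compare the genes with each other, CPM was divided by the length of each gene's merged exons in kb. On that scale ERRFI1 was the most abundant in PBS, at 52.6 ± 2.47 CPM per kb (SD, n = 3), ahead of EGFR at 29.6 ± 0.159. HBEGF followed at 8.92 ± 0.409, NRG1 at 3.77 ± 0.306 and ERBB2 at 1.87 ± 0.179. AREG was at 0.717 ± 0.284, TGFA at 0.410 ± 0.106, ERBB3 at 0.167 ± 0.00971 and EREG at 0.00931. The order was the same in TPBC-PEG, where ERRFI1 stood at 77.9 ± 4.24, EGFR at 34.5 ± 0.647 and AREG at 1.55 ± 0.263 CPM per kb. Neighbours in the order were separate in every library of a group, except ERBB2 and AREG in TPBC-PEG, whose ranges were 1.65 to 1.93 and 1.25 to 1.73 CPM per kb. With the longest transcript as the length these 2 were separate as well.

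The mix of the 5 chosen ligand mRNAs shifted while their sum per kb of merged exon did not move beyond its spread. These 5 ligands together came to 13.8 ± 0.283 CPM per kb in PBS and 14.0 ± 0.411 in TPBC-PEG (SD, n = 3). NRG2, at 4.74 CPM in PBS against 1.18 CPM for AREG, was not part of this sum. HBEGF made up 59.8%, 67.4% and 66.5% of that sum in the PBS libraries and 56.8%, 51.9% and 52.3% in the TPBC-PEG libraries. AREG made up 7.39%, 4.22% and 3.88% in PBS and 9.09%, 11.9% and 12.1% in TPBC-PEG. For both, the groups were separate. NRG1 went from 27.3% ± 1.66 to 30.9% ± 1.14, TGFA from 2.95% ± 0.717 to 4.08% ± 0.341, and EREG stayed under 1% in both groups. These shares follow from the levels above and carry no test of their own. The order of HBEGF and NRG1 depends on length: by CPM alone, NRG1 made up 58.5% and HBEGF 37.0% of the PBS sum. The AREG share is also smaller by CPM alone, 1.61% ± 0.562 in PBS and 3.29% ± 0.466 in TPBC-PEG (SD, n = 3). Without division by length the ligand sum was 72.9 ± 3.20 CPM in PBS and 77.4 ± 3.00 CPM in TPBC-PEG, and the groups overlapped.

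**Figure D3:**
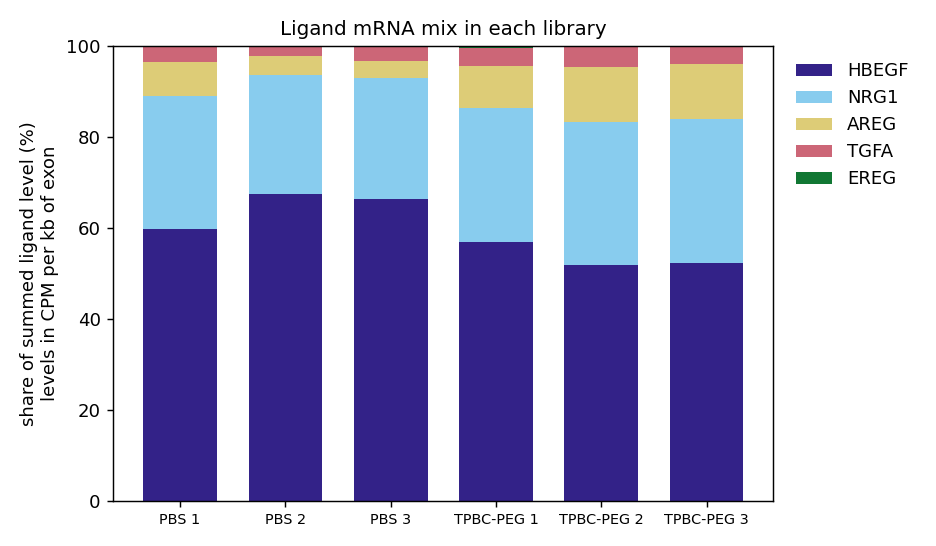
Share of each ligand in the summed ligand level (percent, vertical axis from 0, from CPM per kb of merged exon) in each of the 6 libraries, 1 stacked bar a library. The HBEGF part is at 59.8% or more in the PBS bars and at 56.8% or less in the TPBC-PEG bars, and the AREG part is largest in TPBC-PEG libraries 2 and 3.

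EGFR dominated the receptor mRNAs in both groups, at 93.6% ± 0.545 of the summed receptor level in PBS and 94.7% ± 0.379 in TPBC-PEG. ERBB2 held 5.90% and 4.92% and ERBB3 0.528% and 0.411%. The receptor sum went from 31.6 ± 0.209 to 36.5 ± 0.587 CPM per kb (SD, n = 3).

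Ratios of CPM per kb of merged exon were taken within each library. On that scale the ratio of ERRFI1 to EGFR, inhibitor to receptor, was 1.70, 1.88 and 1.77 in PBS and 2.30, 2.40 and 2.09 in TPBC-PEG, with every treated library above every control. The ratio of HBEGF to NRG1 per kb was 2.05, 2.58 and 2.51 in PBS and 1.92, 1.65 and 1.65 in TPBC-PEG, again without overlap. EGFR to ERBB2 per kb was 17.8, 15.4 and 14.7 in PBS and 18.9, 17.8 and 21.4 in TPBC-PEG; here TPBC-PEG library 2 and PBS library 1 lay next to each other. By CPM without division by length, ERRFI1 to EGFR was 0.595 ± 0.0309 in PBS and 0.756 ± 0.0523 in TPBC-PEG, and HBEGF to NRG1 was 0.634 ± 0.0765 and 0.464 ± 0.0417 (SD, n = 3). For these 2 pairs, which gene is the more abundant therefore turns with the length scaling. Division by length changes a ratio by the same factor in every library, so it cannot alter the order of the libraries. The ratios are given as values without a test.

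The genes most like AREG, ERRFI1 and TGFA, the 3 tested genes with the largest log2 estimates although TGFA was not called, were sought by Pearson's r of log2 CPM over the 6 libraries among 11024 genes of 5 CPM or more. These r values include the difference between the groups and the shared depth of the libraries, and are given without a p. For AREG they were COQ10B (r = 0.994), C8orf44 (0.989) and TRAPPC9 (0.987). COQ10B, a coenzyme Q binding protein of mitochondria, was at 42.9, 38.0 and 38.3 CPM in PBS and 44.4, 48.6 and 47.1 CPM in TPBC-PEG, with library 1 nearest to the other group on both sides, as for AREG. For ERRFI1 they were RPN1 (0.999), SMIM14 (0.999) and XBP1 (0.999). RPN1 belongs to the oligosaccharyl transferase of the endoplasmic reticulum, and XBP1 is a transcription factor of the unfolded protein response. XBP1 was at 78.8, 84.6 and 81.2 CPM in PBS and 110.4, 115.9 and 108.2 CPM in TPBC-PEG, a log2 change of 0.45, and SMIM14 had a log2 change of 1.84. For TGFA they were BBX (0.992), MAGOHB (0.990) and SOX21-AS1 (0.989), all with their lowest value in PBS library 2.

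The rest of the pathway was described through lists ordered by step, each given by its counts beside the 16.2% higher and 16.9% lower of all tested genes. These lists too were chosen with earlier results of these data known. Among 13 genes of ligand shedding, 3 were higher and 5 lower, with a median log2 change of -0.09. ADAM17, the main protease that releases AREG, EREG, HBEGF and TGFA, rose from 29.6 ± 2.75 to 38.9 ± 0.790 CPM (SD, n = 3), a log2 change of 0.40 (edgeR adjusted p = 8.06e-06). IAH1 and a further gene on the other strand cover 13.6% of its exon bases. RHBDF1, iRhom1, which carries ADAM17 to the cell surface, rose by 0.33 on the log2 scale, and CNIH1, a cargo receptor related to the one that exports TGFA-type ligands in flies, by 0.18. ADAM19 fell from 169 ± 8.16 to 131 ± 7.30 CPM, a log2 change of -0.37 (edgeR adjusted p = 1.78e-09). ADAM9 had a log2 change of -0.26 and RECK, a membrane inhibitor of metalloproteases, of -0.24. The count of 5 lower genes was 3 with DESeq2, 2 with scaling by library size alone and 3 without TPBC-PEG library 1 or 3, and RECK lost its call with library size alone (edgeR adjusted p = 0.0501) and without TPBC-PEG library 3 (0.0515).

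Of 16 receptor adaptors and RAS exchange factors 6 were higher and none lower at this threshold, with a median log2 change of 0.06. GAB2, a docking protein that recruits PI3K and SHP2, rose from 10.5 ± 1.09 to 15.9 ± 0.238 CPM (SD, n = 3), a log2 change of 0.60 (edgeR adjusted p = 5.77e-06). SOS2, a RAS exchange factor, rose by 0.45 and GAB1, the docking protein closest to GAB2, by 0.37 on the log2 scale. Without TPBC-PEG library 2 the count of higher genes was 3, and without TPBC-PEG library 3 there was 1 lower gene.

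Of 11 genes of the RAF, MEK and ERK cascade 1 was higher, 2 were lower and 8 did not pass. BRAF rose from 40.3 ± 2.77 to 52.4 ± 3.46 CPM (SD, n = 3), a log2 change of 0.38 (edgeR adjusted p = 2.54e-06). RPS6KA1, the ERK-activated kinase RSK1, fell from 29.2 ± 1.47 to 22.6 ± 0.449 CPM, a log2 change of -0.38. The count of 2 lower genes was 1 without PBS library 1, TPBC-PEG library 1 or TPBC-PEG library 2, with scaling by library size alone and with the trend on expression level removed.

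Of 15 tested genes in the PI3K, AKT, PLCG, STAT and SRC branches 3 were higher and 5 lower. SRC, a kinase that acts with EGFR, and PIK3CA, a catalytic subunit of PI3K, rose by 0.20 and 0.19 on the log2 scale. AKT1 fell from 202.5 ± 3.07 to 168 ± 3.73 CPM (SD, n = 3), a log2 change of -0.27 (edgeR adjusted p = 2.46e-07), and STAT3 had a log2 change of -0.25 and PDPK1, which phosphorylates AKT, of -0.23. KCNMB3 on the other strand covers 35.8% of the exon bases of PIK3CA, and other genes 23.7% of those of PDPK1, and the sources used here do not say whether the counting used strand. SRC lost its call without PBS library 3 (edgeR adjusted p = 0.0786), and PIK3CA with the GC trend removed (0.0567).

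Of 18 genes of receptor ubiquitination and endocytosis 6 were higher and 3 lower. CBLB, a ubiquitin ligase for EGFR, rose from 10.4 ± 0.986 to 15.4 ± 0.520 CPM (SD, n = 3), a log2 change of 0.56 (edgeR adjusted p = 2.21e-05). EPS15 and SH3KBP1, adaptors of receptor uptake, rose by 0.21 and 0.20 on the log2 scale. AP2M1, a subunit of the clathrin adaptor AP-2, fell from 404 ± 12.8 to 321 ± 9.46 CPM, a log2 change of -0.33 (edgeR adjusted p = 4.57e-10). The adaptor EPN1 had a log2 change of -0.33 and UBASH3B, a phosphatase that slows receptor degradation, of -0.26.

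Of 13 other receptor-level inhibitors and kinase chaperones 3 were higher and 4 lower. LRIG2 and LRIG1, membrane proteins of the family in which LRIG1 restrains EGFR family receptors, rose by 0.30 and 0.26 on the log2 scale. For LRIG1 the level went from 34.0 ± 1.37 to 40.7 ± 1.56 CPM (SD, n = 3; edgeR adjusted p = 0.00157). Opposite-strand genes cover 12.9% of its exon bases and 12.5% of those of LRIG2. SOCS4, which promotes EGFR degradation, rose by 0.13, a call lost without PBS library 2 (edgeR adjusted p = 0.0851), TPBC-PEG library 1 (0.0888) or TPBC-PEG library 2 (0.0709) and with the GC trend removed (0.206). The lower genes were led by chaperones on which ERBB2 and other kinases depend. HSP90AA1 fell from 4540.0 ± 225 to 3057 ± 63.5 CPM, a log2 change of -0.57 (edgeR adjusted p = 3.29e-17), and HSP90AB1 and the cochaperone CDC37 had log2 changes of -0.31 and -0.25.

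Of 19 ERK-responsive genes 8 were higher and 5 lower, with a median log2 change of 0.11. The neurosecretory protein gene VGF rose from 14.8 ± 0.392 to 24.3 ± 2.33 CPM (SD, n = 3), a log2 change of 0.71 (edgeR adjusted p = 4.82e-09). The cytokine gene LIF had a log2 change of 0.67. DUSP5, a nuclear ERK phosphatase, rose from 124.9 ± 1.84 to 195.6 ± 4.43 CPM, a log2 change of 0.65 (edgeR adjusted p = 1.91e-18). DUSP6, the cytoplasmic ERK phosphatase, fell from 193 ± 8.15 to 145 ± 3.67 CPM, a log2 change of -0.41 (edgeR adjusted p = 9.88e-12), and AC024909.2 on the other strand covers 40.5% of its exon bases. CCND1, cyclin D1, had a log2 change of -0.38 and the receptor gene EPHA2 of -0.25. The ERK phosphatases and the other ERK-responsive genes named here thus did not share a direction.

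**Figure D4:**
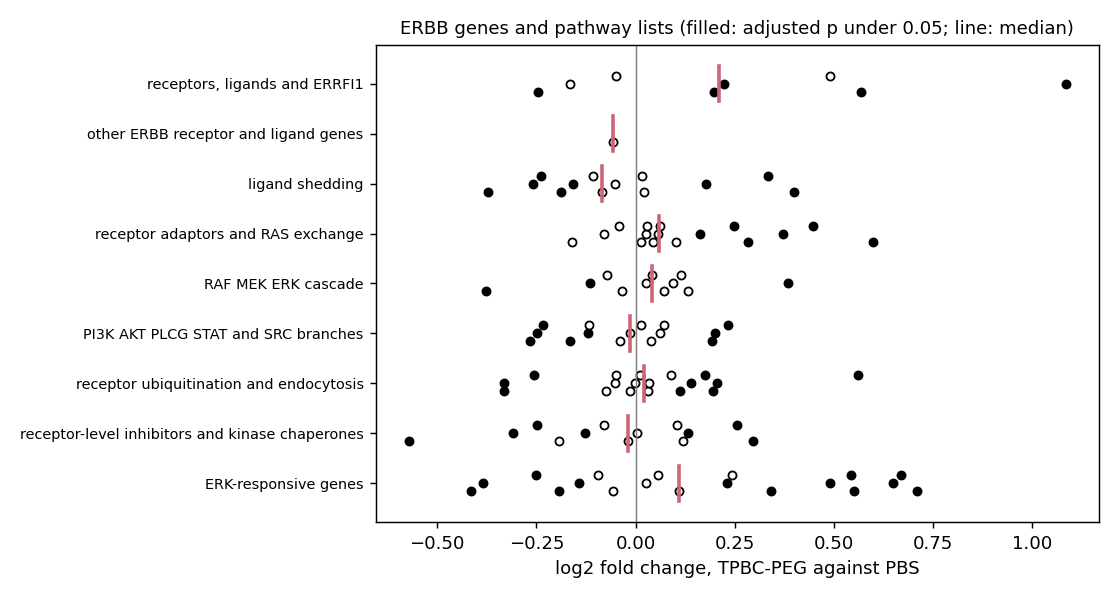
Log2 fold change of TPBC-PEG over PBS (horizontal axis) for every tested gene of the EGF receptor, ligand and ERRFI1 set and of the 8 pathway lists (rows); filled points were called, open points were not, and the short line is the median. Every list with more than 1 tested gene has points on both sides of 0, and AREG lies farthest to the right.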

How the data were processed

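RNA-seq of 143B cells gave 3 libraries a group. The authors deposited 1 table of whole-number counts per gene. HISAT2 and the build GRCh38 are named in the submitters' processing notes; the version, the counter, its strand setting and the annotation are not given in the sources. RNA was described as extracted from animal tissue, per the labels' protocols, although the samples are cultured cells.

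From the deposited counts, genes were kept by filterByExpr (minimum count 10, total 15), scaled by TMM and tested with edgeR 4.0.16 (robust quasi-likelihood fit, R 4.3.3) on both groups without covariates, with Benjamini-Hochberg adjustment and a threshold of 0.05. CPM used TMM library sizes. Depth was 15726323 to 20486584 counts, with a common biological variation of 4.19% (coefficient). Intervals for summed counts cover counting error only and leave out the spread between libraries. PCR copies were not marked by molecular identifiers.

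The genes and lists were chosen with earlier results of these data known. All 9 genes are named, and from each list up to 3 called genes a direction with the largest change and at least 1 CPM, or the 2 most abundant if none was called; the 3 genes of most similar pattern are named for the 3 tested genes with the largest change. Of the genes this rule names, 2 are not reported here. Lengths and overlaps come from GENCODE 29 on GRCh38, and promoter windows from RefSeq. There were 20 alternative fits, among them DESeq2 1.42.0 and limma 3.58.1; 4 were added after seeing the data (GC, length and expression-level trends removed with a lowess span of 0.3, and protein-coding genes alone). Deviations of same-numbered libraries correlated at 0.0034, 0.065 and -0.015, and those of differently numbered libraries at -0.055 to 0.051. These values do not show pairing by replicate number, and with 3 libraries a group they cannot exclude it.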

Additional observations from a re-analysis of the deposited data

How the results depend on the processing

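Across the 20 alternatives the log2 change was 0.92 to 1.47 for AREG, 0.19 to 0.31 for EGFR, 0.53 to 0.64 for ERRFI1, -0.29 to -0.20 for HBEGF and 0.29 to 0.65 for TGFA, which was called in none of them. AREG, EGFR, ERRFI1 and HBEGF kept direction and call in 19 of 20, the exception being the test against a 1.5-fold change. That test left the log2 changes at 1.08 for AREG, 0.22 for EGFR, 0.57 for ERRFI1, -0.24 for HBEGF and 0.20 for NRG1 without a call, so 0 of the 9 genes were higher and 0 lower, against 131 higher and 14 lower among all genes. NRG1 was 0.19 and not called with DESeq2, and 0.15 to 0.26 when a library was left out. Leaving out a library moved ERBB2 between -0.13 and 0.0033 (0.0028 without TPBC-PEG library 3), ERBB3 between -0.37 and 0.052, and NRG2 between -0.137 and 0.046; NRG2 was 0.016 with the GC trend removed. As shares of the ligand sum, HBEGF was 37.0% in PBS and 29.3% in TPBC-PEG by CPM and 56.7% and 46.3% by longest transcript, and NRG1 58.5% and 63.4% by CPM and 36.1% and 40.3% by longest transcript; AREG was 1.61% and 3.29% by CPM. Library size alone gave 3213 higher and 1971 lower genes against 2574 and 2682. The adaptor list had 1 lower gene with DESeq2 size factors and with a filter of 1 CPM in 3 libraries. A fit with a replicate block gave log2 changes of 1.09 for AREG and 0.57 for ERRFI1 and changed no call of the 8 tested genes. Depth limits the genes with few counts a library: 14 to 59 for AREG, 18 to 29 for ERBB3 and 0 to 6 for EREG. The cause of these shifts was not tested.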
